A study of Mus musculus with 64 samples.

Results

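The hippocampal transcriptome of Angelman syndrome (AS) mice was compared with that of wild-type (WT) mice in the cohort exposed continuously to corticosterone (CORT), with both treatments pooled and treatment kept as a covariate. The comparison used 18 libraries, 9 of AS mice and 9 of WT mice, out of 20 hippocampal libraries of this cohort and 64 libraries in the series. Members were chosen by cohort, tissue and genotype as the labels give them, without H9 (AS, vehicle) and H13 (WT, vehicle), the pair of libraries that the study also set aside. The 4 groups were WT mice with a vehicle pellet (n = 4), WT mice with a CORT pellet (n = 5), AS mice with a vehicle pellet (n = 4) and AS mice with a CORT pellet (n = 5). All were male F1 hybrids of a 129sv and a C57BL/6J parent, 10 to 18 weeks old, and all carried a slow-release pellet under the skin, of cholesterol alone or with CORT. AS mice lacked exon 5 of the maternal Ube3a allele in every cell of the body and kept an intact paternal allele, while WT mice had both copies. The left hippocampus was taken, and each library is 1 mouse.

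UBE3A is a HECT-type ubiquitin ligase that tags proteins for degradation by the proteasome, and it can also act as a coactivator of nuclear hormone receptors. In neurons the paternal Ube3a allele is silenced by a long antisense transcript that is read through from the Snhg14 gene, so that a maternal deletion leaves neurons without the protein. In liver and other peripheral tissue both alleles are read. Loss of neuronal UBE3A in humans gives Angelman syndrome, a neurodevelopmental disorder with intellectual disability, seizures and impaired movement, and the hippocampus of AS mice has been studied for its deficits in plasticity and memory.

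Counts on genes numbered 19112929 to 21783009 per library, and 3 counts correspond to 0.138 to 0.157 CPM, gene counts scaled to library size, a floor which covers counting error only. The median correlation of a library with the others, over log2 CPM, was 0.985 to 0.991 in the 18 libraries, 0.934 in H9 and 0.925 in H13. Summed CPM of 11 thalamus markers was 2830 in H9 and at most 331 in the 18 libraries. Summed CPM of 9 striatum markers was 4580 in H13 and at most 371 in the others, and that of 15 choroid plexus markers was 18700 in H13 and at most 4340. All markers of hippocampal cells were detected, and the liver gene Alb was at most 88.7 CPM in the hippocampus against at least 68800 CPM in liver.

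Ube3a itself did not pass the threshold in the hippocampus on this measure, which sums reads over all exons of the gene. Its span overlaps Snhg14 in the annotation. Without the strand setting of the counting, its reads cannot be told apart from those of the antisense transcript. The study reports lower UBE3A protein in the brain of AS mice of this cohort, measured in frontal cortex. Ube3a expression was 72.9 to 98.0 CPM in WT mice (median of 78.5) and 69.2 to 97.5 CPM in AS mice (median of 83.8). These ranges overlapped almost wholly, with a log2 difference of 0.06 (standard error 0.0697, edgeR adjusted p = 0.773). In liver of the same cohort, Ube3a was 41.8 to 54.4 CPM in 10 WT mice and 28.5 to 38.6 CPM in 10 AS mice, so that every AS liver lay below every WT liver (log2 difference of -0.52, edgeR adjusted p = 0.000154). Whether the genotype difference itself differed between the tissues was not tested. Snhg14, which carries the antisense transcript, averaged 22.9 CPM in WT and 25.4 CPM in AS hippocampus (log2 difference of 0.14, edgeR adjusted p = 0.373).

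Over the hippocampal transcriptome, the number of genes that passed the threshold moved with the settings, and most differences were small. Of 14949 genes tested, 84 (0.562%) passed an adjusted p-value of 0.05 in edgeR's quasi-likelihood test, 37 higher in AS mice (0.248% of all genes) and 47 lower (0.314%). DESeq2 gave 335 genes and limma-voom with sample quality weights 394, with all 84 among them in both, and upper-quartile scaling in edgeR gave 94, 56 higher and 38 lower. The median absolute log2 difference of these 84 genes was 0.32, beside 0.06 over all genes, and 19 exceeded a 1.5-fold difference while 30 stayed under 1.2-fold. Libraries of the genotypes did not overlap for 9 of the 84 genes, and for 10 of all genes tested (0.0669%). The 84 genes comprised 77 protein-coding genes, 4 antisense genes, 2 long intergenic RNAs and 1 gene model of the class TEC, whose transcript awaits experimental support. CORT against vehicle altered 1495 genes (10.0%) in the same fit, and 15 of the 84 (17.9%) were among them, 12 higher and 3 lower with CORT.

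**Figure D1:**
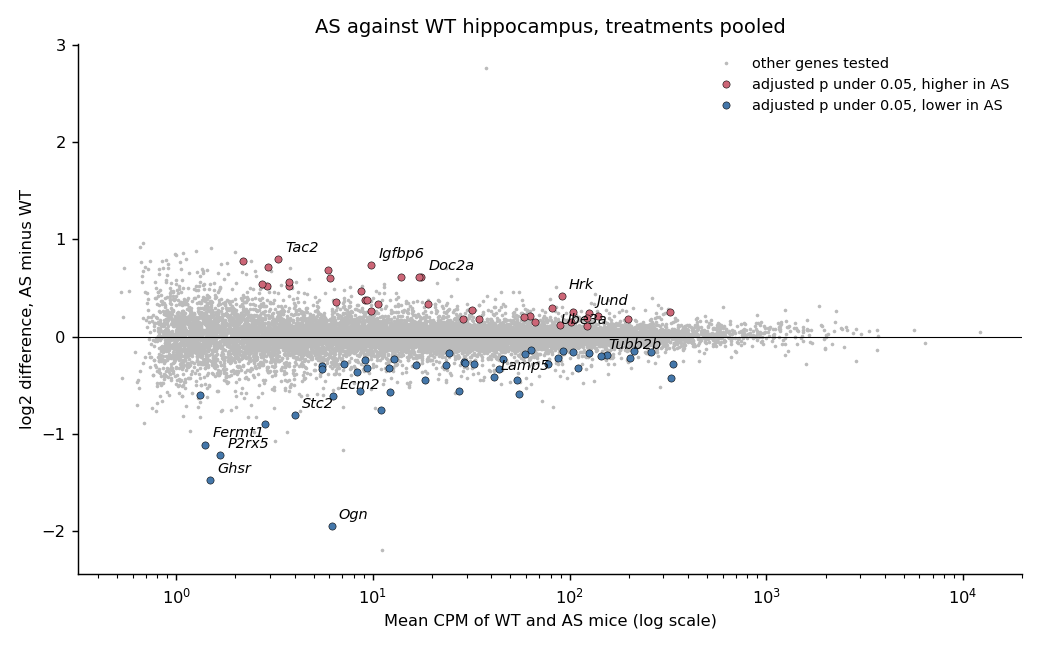
Each point is 1 of the 14949 genes tested in the hippocampus of the continuous cohort, with its mean CPM on a log axis and the log2 difference between AS and WT mice with treatments pooled. Ogn stands lowest among the 84 genes past the threshold, and most of the others lie within 1 log2 unit of 0; Ube3a lies near 0.

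Markers of dentate granule cells were measured beside these counts. Of 6 markers of these principal neurons of the dentate gyrus, 0 passed the adjusted threshold, and 6 had a lower value in AS mice at an unadjusted p under 0.05, as did 7.14% of all genes. In either direction, 2023 of all genes tested (13.5%) had an unadjusted p under 0.05. The smallest adjusted p was that of Dsp, which encodes desmoplakin, a protein of desmosomes (log2 difference of -0.66, edgeR adjusted p = 0.0884). Summed CPM of the list was 385 to 679 in WT mice (median of 495) and 247 to 561 in AS mice (median of 371). Prox1, the transcription factor that sets granule cell identity, averaged 137 CPM in WT and 98.5 CPM in AS mice (log2 difference of -0.48, adjusted p = 0.213). The genotypes overlapped on this sum, with H14 highest among AS mice and H5 lowest among WT mice. In bulk tissue, fewer cells of a type and less RNA per cell cannot be told apart, and none of the 6 markers was at 0 in the data. When the log2 sum was added to the fit as a covariate, an alternative chosen after the sums were seen, 11 genes passed the threshold, 7 of them among the 84, namely Ogn, Ghsr, Adamts1, Gm45441, Doc2a, Igfbp6 and Hrk. The other 77 no longer passed in that fit, among them Lamp5 (log2 difference of -0.37, adjusted p = 0.0517), Morc2a (-0.20, adjusted p = 0.07), Nbr1 (-0.14, adjusted p = 0.0866), Npy1r (-0.35, adjusted p = 0.0514) and Jade1 (0.18, adjusted p = 0.0514). Jade1 had a log2 difference of 0.18 without the covariate too (adjusted p = 0.0047). A call lost in that fit therefore need not mean a smaller difference. All 84 kept their sign in that fit and the median gene kept 0.772 of its log2 difference. Among the 12 higher and the 12 lower genes with the smallest p, the value shrank by over 1.5 times for Ghsr (to -0.92), Npy1r (-0.35), Stc2 (-0.53), Fam160a1 (-0.50), Lonrf3 (-0.37) and Cbarp (0.17). It grew for Hrk (from 0.42 to 0.56) and Adamts1 (from -0.44 to -0.47).

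The count also depended on single mice. It ranged from 27 genes without H11 to 342 without H14, with 250 without H5, and all 84 genes kept their sign in each of the 18 fits that left out 1 mouse. H14 and H5 are the mice at the inner edges of the dentate marker sums given above, with 561 in H14 and 385 in H5, and H14 also had the highest sum of thalamus markers among the 18 libraries (331 CPM). The part of these in the result was not tested. With all 20 libraries, 2 genes passed the threshold, Ogn and Morc2a, and all 84 again kept their sign. In 24 of the 84 genes the adjusted p stayed under 0.05 whichever mouse was left out, and these include all 12 of the lower genes with the smallest p and 9 of the 12 higher genes, without Hrk, Jund and Tac2.

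Ogn had the largest log2 difference of the 84 genes, and passed the threshold in each fit that left out 1 mouse and in each of 10 other settings. It encodes osteoglycin, also called mimecan, a small leucine-rich proteoglycan of the extracellular matrix that binds collagen, and is a marker of the fibroblasts of the meninges. Expression was 7.91 to 13.3 CPM in WT mice (median of 9.56) and 1.64 to 3.79 CPM in AS mice (median of 2.41). Every AS mouse lay below every WT mouse, under vehicle as under CORT, at counts of 160 to 293 reads in WT mice and 36 to 82 in AS mice. The log2 difference was -1.95 (standard error 0.137), a 3.87-fold lower level, with an adjusted p of 1.23e-07 by edgeR. It was -2.15 (standard error 0.203) with vehicle and -1.80 (standard error 0.179) with CORT, and Ogn passed the threshold in both. In the fit with the dentate marker covariate it was -1.71 (adjusted p = 1.35e-06). The library that was left out from the AS mice, H9, had 7.42 CPM, between the highest AS and the lowest WT value of the fit, and the WT library that was left out, H13, had 13 CPM. Both stood above the 18 libraries on the summed meningeal fibroblast markers, a list that holds Ogn, with 207 CPM in H9 and 224 CPM in H13 against at most 127 CPM. With these included the log2 difference was -1.75 (adjusted p = 0.00103).

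**Figure D2:**
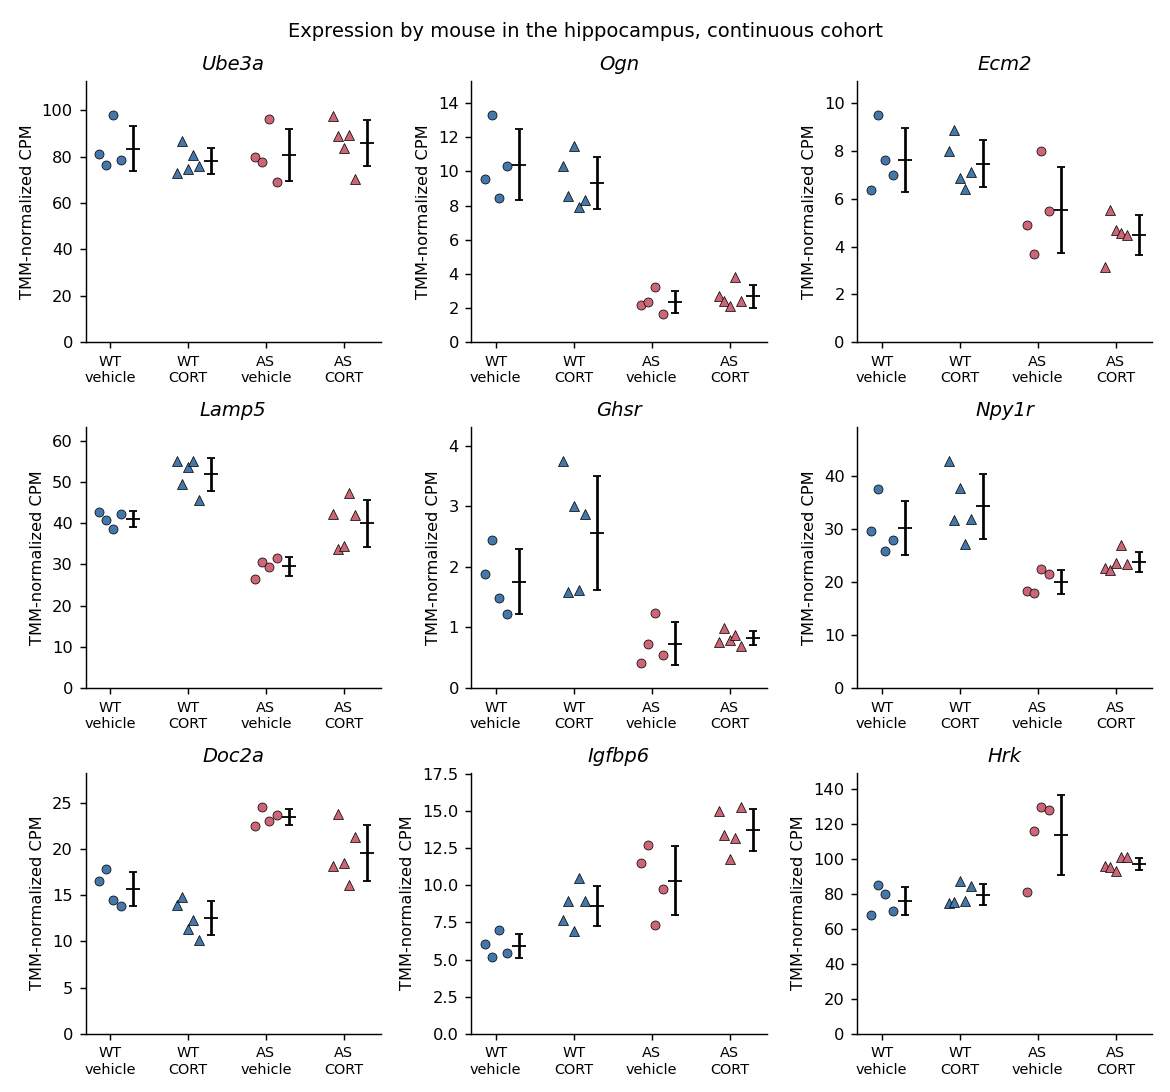
TMM-normalized CPM of 9 genes in each of the 18 mice, in 4 groups of 4 or 5 mice; circles are vehicle and triangles CORT, and the bars beside them give the mean and SD. Ogn separates the genotypes under both treatments, from 1.64 to 3.79 CPM in AS mice against 7.91 to 13.3 CPM in WT mice, while the Ube3a values of the 4 groups overlap.

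Ogn lies on chromosome 13 of GRCm38 from 49608046 to 49624501, in a cluster of genes for related matrix proteins that is nested, on the opposite strand, inside Cenpp, the gene of a centromere protein. Another gene of the cluster, Ecm2, which encodes a matrix protein related to these proteoglycans, starts 0.103 Mb away and was also lower in AS mice. Ecm2 was 6.39 to 9.51 CPM in WT mice (median of 7.14) and 3.15 to 8.02 CPM in AS mice (median of 4.69). All AS mice but H14 lay below the lowest WT mouse, and the log2 difference was -0.61 (standard error 0.132, edgeR adjusted p = 0.0393). Ecm2 passed the threshold in 5 of the 18 fits that left out 1 mouse, and with the dentate marker covariate its log2 difference was -0.49 (adjusted p = 0.366). Of the 18 genes tested within 1 Mb of Ogn, the 16 others had log2 differences from -0.16 to 0.27 and a smallest adjusted p of 0.0774. Cenpp, whose span covers both genes, had a log2 difference of 0.22 (adjusted p = 0.628), though without the strand setting of the counting its reads cannot be told apart from theirs, and Aspn, for asporin, which lies between them, was measured at only 0.602 CPM in WT and 0.545 CPM in AS mice (medians; log2 difference of -0.16, adjusted p = 0.817). Omd, for osteomodulin, did not pass the filter, with at most 8 counts in any library.

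**Figure D3:**
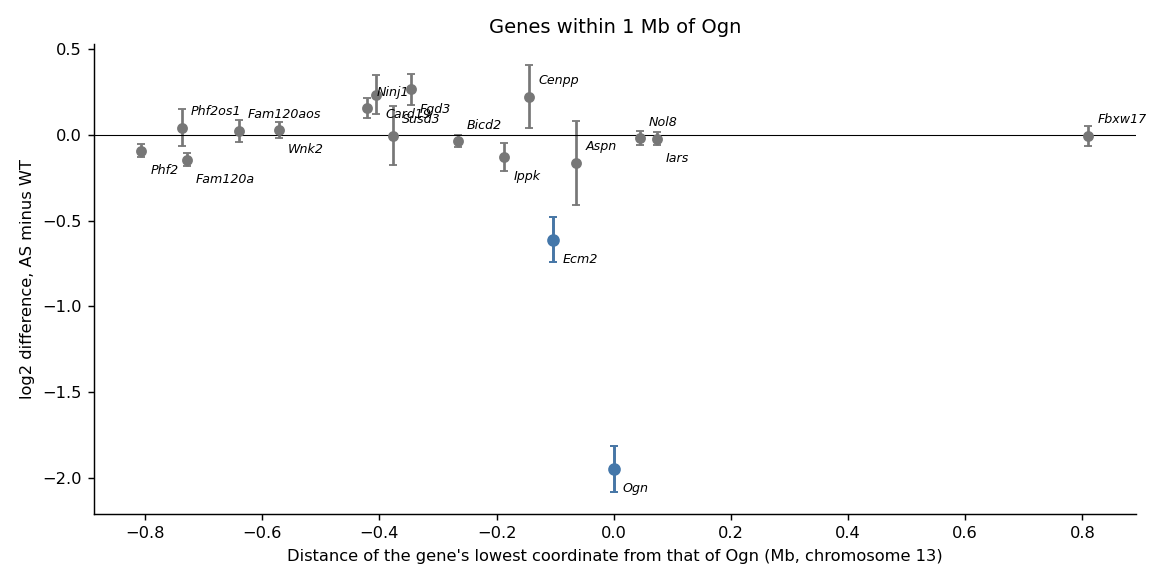
Log2 difference between AS and WT mice, with its standard error, for the 18 genes tested within 1 Mb of Ogn on chromosome 13, by distance from Ogn in Mb. Ogn at -1.95 and Ecm2 at -0.61, in blue, are the pair of genes past the threshold; the others lie between -0.16 and 0.27.

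The 250 bases upstream of the start sites of these neighbours are shown because both genes were lower together, as they stand in RefSeq on GRCm38.p6. They lie on the plus strand at chr13:49607765-49608014 for Ogn and chr13:49504560-49504809 for Ecm2, and capitals mark matches on either strand to TATAAA, the TATA box, and to CATTCC, the element bound by TEAD factors.
Ogn: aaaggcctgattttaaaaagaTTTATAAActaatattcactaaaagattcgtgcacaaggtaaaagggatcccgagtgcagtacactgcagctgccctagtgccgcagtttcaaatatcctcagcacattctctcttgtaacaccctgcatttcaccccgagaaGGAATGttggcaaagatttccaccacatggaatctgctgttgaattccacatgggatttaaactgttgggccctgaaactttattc
Ecm2: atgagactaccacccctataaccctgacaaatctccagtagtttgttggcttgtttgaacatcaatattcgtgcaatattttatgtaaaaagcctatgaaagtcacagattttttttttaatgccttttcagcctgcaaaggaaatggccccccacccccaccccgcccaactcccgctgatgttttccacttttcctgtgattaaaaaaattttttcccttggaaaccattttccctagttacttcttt
The Ogn window held 2 overlapping matches to TATAAA, which begin 229 and 227 bases before the start site, and 1 match to CATTCC that begins 86 bases before it. The Ecm2 window held 0 matches to either. These are matches of letters alone, and whether any of them serves as a TATA box or binds TEAD factors was not tested. Among 32851 RefSeq promoters of the same length, 12.4% held TATAAA and 12.6% held CATTCC.

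Fibroblast markers were measured beside Ogn, as this gene is itself one of them. Of 13 meningeal fibroblast markers tested of 15 listed, 1 was lower past the threshold, Ogn, and 4 had an unadjusted p under 0.05 (13.5% of all genes), with a median log2 difference of -0.30 beside -0.000168 over all genes. Lum, for lumican, averaged 5.02 CPM in WT and 3.38 CPM in AS mice (log2 difference of -0.59, edgeR adjusted p = 0.103). The collagen genes Col1a1 and Col1a2 had log2 differences of -0.20 (adjusted p = 0.537) and -0.30 (adjusted p = 0.522). Summed CPM of the list, Ogn included, was 55.4 to 127 in WT mice (median of 75.9) and 49.3 to 89.0 in AS mice (median of 62.4). The part of these cells in the Ogn difference was not tested. Among small leucine-rich proteoglycans as a list, 2 of 11 tested were lower past the threshold (0.314% of all genes), Ogn and Ecm2, 0 were higher, and the median log2 difference was -0.16. Dcn, for decorin, and Bgn, for biglycan, had log2 differences of -0.36 (adjusted p = 0.692) and 0.06 (adjusted p = 0.787).

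The other lower genes with the smallest p included a membrane protein and 3 receptors of neurons. Lamp5 encodes a lysosome-associated membrane protein of the brain that marks a class of interneurons. It was 38.5 to 55.1 CPM in WT mice (median of 45.7) and 26.5 to 47.4 CPM in AS mice (median of 33.8). The genotypes overlapped over all mice but not within vehicle, where WT mice had 38.5 to 42.8 CPM and AS mice 26.5 to 31.6 CPM. The log2 difference was -0.42 (standard error 0.0615, edgeR adjusted p = 0.00348). Lamp5 was also higher with CORT, by 0.38 on the log2 scale (edgeR adjusted p = 0.000352), in the direction opposite to the genotype difference.

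Ghsr encodes the receptor of ghrelin, a hormone of the stomach that stimulates appetite and growth hormone release. It was 1.22 to 3.75 CPM in WT mice (median of 1.88) and 0.417 to 1.24 CPM in AS mice (median of 0.752), so that a single AS mouse, H14, reached above the lowest WT value. The log2 difference was -1.48 (standard error 0.217, edgeR adjusted p = 0.00348). Npy1r, for a receptor of neuropeptide Y, was 25.8 to 42.8 CPM in WT mice (median of 31.6) and 17.9 to 26.9 CPM in AS mice (median of 22.4). Only H16 among AS mice lay above the lowest WT mouse, with a log2 difference of -0.56 (standard error 0.0838, adjusted p = 0.00364; 0.0514 with the dentate marker covariate). P2rx5, for an ATP-gated ion channel, was 1.17 to 3.45 CPM in WT mice (median of 2.44) and 0.740 to 1.56 CPM in AS mice (median of 0.962), with a log2 difference of -1.22 (standard error 0.207, adjusted p = 0.00904).

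The remaining lower genes with the smallest p encode secreted, cytoplasmic and nuclear proteins. Adamts1, for a secreted protease that cuts matrix proteoglycans, was 18.4 to 27.4 CPM in WT mice (median of 20.2) and 13.8 to 17.4 CPM in AS mice (median of 15.4). Stc2, for stanniocalcin 2, a secreted glycoprotein, was 3.85 to 7.24 CPM in WT mice (median of 4.80) and 2.38 to 3.71 CPM in AS mice (median of 2.59). Nbr1, for a receptor that hands ubiquitinated cargo to autophagosomes, was 155 to 172 CPM in WT mice (median of 167) and 136 to 152 CPM in AS mice (median of 146). For these 3 genes every AS mouse lay below every WT mouse, at log2 differences of -0.44, -0.81 and -0.19. The adjusted p-values were 0.0047 for Adamts1 and for Nbr1 and 0.00742 for Stc2 in edgeR. Morc2a, for a chromatin-silencing ATPase, had a log2 difference of -0.23 (adjusted p = 0.00364), and its span overlaps Tug1 in the annotation. Fam160a1, Lonrf3 and Trib2, the last for a pseudokinase, had log2 differences of -0.76, -0.56 and -0.26, with adjusted p-values of 0.0071 for the first and 0.0120 for the others.

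Doc2a led the protein-coding genes that were higher in AS mice. It encodes a calcium sensor of synaptic vesicles that promotes asynchronous and spontaneous transmitter release. It was 10.2 to 17.8 CPM in WT mice (median of 13.9) and 16.1 to 24.6 CPM in AS mice (median of 22.5). Within each treatment every AS mouse lay above every WT mouse, with 22.5 to 24.6 against 13.8 to 17.8 CPM under vehicle and 16.1 to 23.8 against 10.2 to 14.8 CPM under CORT. The log2 difference was 0.62 (standard error 0.0777, edgeR adjusted p = 0.00077). Doc2a is on chromosome 7, the chromosome of Ube3a, but 67.6 Mb from it, and its span overlaps Ino80e in the annotation.

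Igfbp6 encodes a secreted protein that binds insulin-like growth factor 2. It was 5.16 to 10.5 CPM in WT mice (median of 7.01) and 7.33 to 15.3 CPM in AS mice (median of 12.7), and within each treatment the genotypes were apart. The log2 difference was 0.73 (standard error 0.101, edgeR adjusted p = 0.00207). It was also higher with CORT in the same fit (log2 difference of 0.47, adjusted p = 0.00454). Hrk, for harakiri, a BH3-only protein that promotes apoptosis, was 68.0 to 87.6 CPM in WT mice (median of 76.0) and 81.1 to 130 CPM in AS mice (median of 101). Only H2 among AS mice lay within the WT range (log2 difference of 0.42, standard error 0.0784, adjusted p = 0.0192). Tac2, for neurokinin B, was 1.62 to 3.40 CPM in WT mice (median of 2.49) and 2.79 to 5.73 CPM in AS mice (median of 4.21), with a log2 difference of 0.80 (adjusted p = 0.0201).

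The other higher genes with the smallest p had log2 differences from 0.18 to 0.62. Jade1, for a subunit of a histone acetyltransferase complex, was 29.8 to 33.4 CPM in WT mice (median of 32.8) and 34.7 to 38.9 CPM in AS mice (median of 36.7). Bean1, for a membrane protein that interacts with the ubiquitin ligase NEDD4, was 6.95 to 9.32 CPM in WT mice (median of 7.70) and 9.44 to 11.4 CPM in AS mice (median of 9.91). Every AS mouse lay above every WT mouse for both, at log2 differences of 0.18 and 0.37 and the same adjusted p of 0.0047. Fhl1, for a LIM-domain protein, Cbarp, for a regulator of voltage-gated calcium channels, Bend6, for a corepressor of Notch signalling, and Jund, for a subunit of the AP-1 transcription factor, had log2 differences of 0.29, 0.26, 0.25 and 0.25, with adjusted p-values from 0.0071 (Fhl1) to 0.0192 (Jund). Slc5a5, for the sodium iodide symporter, had a log2 difference of 0.62 (adjusted p = 0.00742). Gm45441 is an antisense gene on chromosome 7, from 45830895 to 45835249, whose span overlaps Grin2d and Grwd1. It was 3.76 to 6.06 CPM in WT mice (median of 4.98) and 5.98 to 9.04 CPM in AS mice (median of 6.91), with a log2 difference of 0.60 (adjusted p = 0.000199). Whether the counting used strand is not given in the sources used here, so its reads cannot be told apart from those of the overlapping genes. Grin2d, a subunit of the NMDA receptor, had a log2 difference of 0.20 (adjusted p = 0.247).

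The genes without overlap between genotypes were Ogn, Nbr1, Adamts1 and Stc2 among the lower ones and Jade1, Bean1, Kctd2, Dazl and Coa5 among the higher ones, the last 3 named here after their values were seen. Kctd2 was 52.6 to 60.8 CPM in WT mice and 62.9 to 75.8 CPM in AS mice. Dazl, known as a germ-cell RNA-binding protein, was 1.94 to 2.83 CPM in WT mice and 2.84 to 4.23 CPM in AS mice. Coa5, for an assembly factor of cytochrome c oxidase, was 114 to 122 CPM in WT mice and 123 to 130 CPM in AS mice. The log2 differences were 0.21, 0.52 and 0.11, with edgeR adjusted p-values of 0.0243, 0.0243 and 0.0266. Kctd2, Dazl and Coa5 passed the threshold in 14, 13 and 9 of the 18 fits that left out 1 mouse.

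Differences of the 84 genes were of one sign under both treatments. With vehicle, 2 genes (0.0134%) passed the threshold, Ogn and Gm45441, and with CORT 6 genes (0.0401%) did, namely Ogn, P2rx5, Gm45441, Doc2a, Stc2 and Ghsr. All of these are among the 84. The counts were 1 to 6 with vehicle and 1 to 16 with CORT when 1 mouse was left out, and 18 and 47 with DESeq2. At an unadjusted p under 0.05 there were 1098 genes with vehicle and 1523 with CORT. Each of the 84 genes had the same sign with vehicle and with CORT, as did 59.8% of all genes, but the pooled test favours such genes by its construction. The interaction, which is the AS against WT difference with CORT minus that with vehicle, passed the threshold for 0 genes in edgeR and 0 in DESeq2, with 561 genes at an unadjusted p under 0.05 in edgeR. Among the lower genes, P2rx5 had a log2 difference of -0.73 with vehicle and -1.60 with CORT, and Stc2 had -0.56 and -1.01, but their interactions did not pass. Of the 47 lower genes, 11 were also altered by CORT, 10 of them higher and 1 lower, and of the 37 higher genes 4 were, 2 in each direction. Over all genes, 658 were higher and 837 lower with CORT.

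In lists of genes tied to UBE3A, 0 genes passed the threshold, beside 0.562% of all genes. Of 14 genes tested at the Ube3a locus, 0 passed and 2 had an unadjusted p under 0.05, with a median log2 difference of -0.04 and Snrpn, a paternally expressed splicing gene, nearest to it (0.14, edgeR adjusted p = 0.2). Within 10 Mb of Ube3a, 0 of 67 genes tested passed, with log2 differences from -0.33 to 0.58, a smallest adjusted p of 0.072 and 14 genes at an unadjusted p under 0.05, a cut that 13.5% of all genes reached. Of 26 HECT ubiquitin ligases 0 passed and 6 had an unadjusted p under 0.05 (1 higher and 5 lower in AS mice; 13.5% of all genes), and Nedd4, a ligase of the same family with roles in neurite growth, came nearest (log2 difference of -0.13, adjusted p = 0.0688). Of 14 UBE3A substrates and partners 0 passed and 1 had an unadjusted p under 0.05, and Ptpa, for an activator of phosphatase PP2A, came nearest (0.09, adjusted p = 0.174).

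Genes of hormone response, activity and transmission gave 2 genes past the threshold over 3 lists, beside 0.562% of all genes. Among 21 genes of corticosteroid receptors and targets of the glucocorticoid receptor (GR), 0 passed in edgeR and 5 had an unadjusted p under 0.05, beside 13.5% of all genes. The nearest was Hsd11b1, the enzyme that regenerates active corticosterone in cells, at a log2 difference of -0.20 (adjusted p = 0.0774), and Fkbp5, a cochaperone of GR that GR induces, had -0.24 (adjusted p = 0.248). Nr3c1, the gene of GR, averaged 83.5 CPM in WT and 86.6 CPM in AS mice (log2 difference of 0.05, adjusted p = 0.801). Of 18 immediate early genes, 1 was lower past the threshold, Fosl2, which encodes a Fos-family partner of AP-1. It was 40.2 to 62.3 CPM in WT mice (median of 48.4) and 28.5 to 45.6 CPM in AS mice (median of 37.9; log2 difference of -0.34, adjusted p = 0.0349), while Fos had a log2 difference of 0.48 (adjusted p = 0.54). Fosl2 passed the threshold in 10 of the 18 fits that left out 1 mouse. Of 16 neuropeptides 1 was higher past the threshold, Tac2, described above.

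Of 27 genes of synaptic vesicles and release 0 passed and 9 had an unadjusted p under 0.05 (13.5% of all genes), 7 with a higher and 2 with a lower value in AS mice, and the median log2 difference was 0.07. Vamp1, a vesicle SNARE, came nearest (-0.15, edgeR adjusted p = 0.077), and its log2 difference was 0.17 with all 20 libraries. Doc2a was not on this list. Of 12 GABA-A receptor subunits 0 passed, with Gabra3 nearest (0.38, adjusted p = 0.173). Of 17 ionotropic glutamate receptor subunits 0 passed and 3 had an unadjusted p under 0.05, with a median log2 difference of -0.01. Of 18 circadian clock genes 0 passed, with Cry1, a repressor of the clock, nearest (-0.25, adjusted p = 0.109).

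Marker lists of other cells and regions overlapped between the genotypes, and 0 of their genes passed the threshold beside Ogn. Summed CPM was 119 to 4340 in WT and 170 to 890 in AS mice for choroid plexus, with H17 (WT) highest, and 60.9 to 159 and 62.6 to 331 for thalamus. Oligodendrocyte markers summed to 2330 to 6720 in WT and 2820 to 7220 in AS mice, where all 10 markers had log2 differences of 0.26 to 0.38 and a smallest adjusted p of 0.537 in edgeR. Sums of astrocytes were 3070 to 4140 and 2910 to 3900, of microglia 376 to 475 and 365 to 443, of endothelial cells 183 to 264 and 175 to 240, and of blood 41.1 to 187 and 37.9 to 175. Striatum markers summed to 89.0 to 371 and 96.8 to 235. Among hippocampal neurons other than granule cells, CA1 pyramidal markers summed to 256 to 801 in WT and 325 to 907 in AS mice, CA2 and CA3 markers to 250 to 314 and 253 to 332, and interneuron markers to 743 to 920 and 694 to 915.

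**Figure D4:**
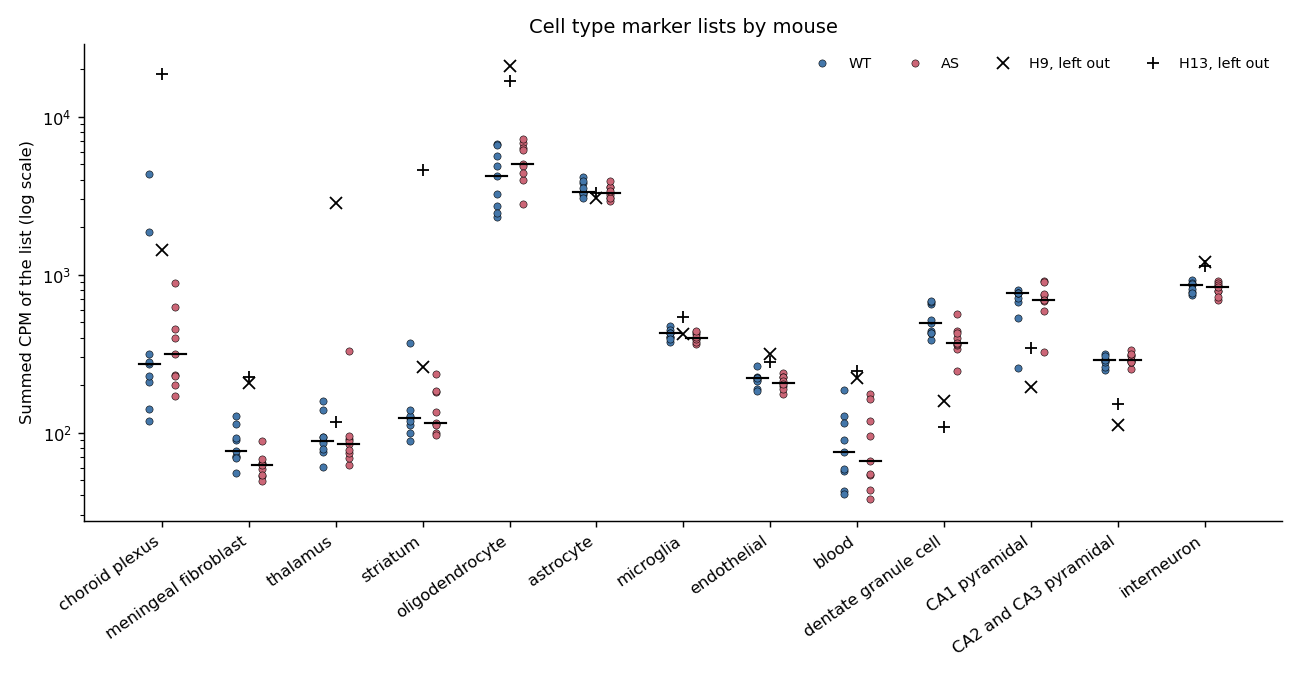
Summed CPM of each list of cell type or region markers, on a log axis, in each mouse; points are the 18 mice in the fit, horizontal lines the medians of WT and AS mice, and crosses the libraries that were left out. The dentate granule list is the one with the widest gap between medians in neurons (495 in WT, 371 in AS). Of the libraries left out, H9 lies above the 18 on thalamus markers and H13 on striatum, choroid plexus and microglia markers. Both lie above them on oligodendrocyte, meningeal fibroblast, endothelial, blood and interneuron markers.

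The same contrast was available in mice that the choice of these genes did not use, the AS and WT vehicle mice of the acute cohort (6 each), which received an injection in place of a pellet. Of the 84 genes, 83 were measured there and 81 had the same sign, as did 60.7% of all genes. A total of 50 had the same sign with an unadjusted p under 0.05, against 7.25% of all genes. In that contrast 23 of 14611 genes (0.157%) passed the edgeR threshold, and 5 of the 84 were among them, Ogn, Lamp5, Doc2a, Ghsr and Hrk, each in the same direction. The median log2 difference of the 83 genes in the acute cohort, signed by their direction in the continuous cohort, was 0.23. The 6 dentate granule markers also had negative log2 differences there, from -0.42 (Lct) to -0.13 (Tdo2), with a smallest edgeR adjusted p of 0.421 (Calb1). Their part in the shared signs was not tested.

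Ogn in the acute cohort was 5.92 to 11.5 CPM in WT vehicle mice (median of 9.75) and 2.29 to 2.57 CPM in AS vehicle mice (median of 2.37), again with no overlap (log2 difference of -1.99, standard error 0.193, edgeR adjusted p = 1.75e-06). Its range was 5.96 to 12.3 CPM in the WT CORT mice of that cohort and 1.75 to 4.24 CPM in the AS CORT mice. Lamp5 was 32.5 to 42.6 CPM in WT and 23.9 to 28.1 CPM in AS vehicle mice (log2 difference of -0.56, adjusted p = 0.000959). Doc2a was 12.9 to 18.2 CPM in WT and 23.3 to 33.1 CPM in AS vehicle mice (log2 difference of 0.80, adjusted p = 0.00132). Ghsr was 1.29 to 2.85 CPM in WT and 0.342 to 1.17 CPM in AS vehicle mice (log2 difference of -1.45, adjusted p = 0.00311), and Hrk was 60.5 to 74.8 CPM and 79.5 to 96.8 CPM (log2 difference of 0.41, adjusted p = 0.0419). The genes of opposite sign in the acute cohort were Jund (-0.08, adjusted p = 0.84) and B4galt1 (0.05, adjusted p = 0.952), named here after their values were seen. Ecm2 had a log2 difference of -0.33 there (adjusted p = 0.325). Of the other fibroblast markers named above, Lum had -0.15, Col1a1 0.05, Col1a2 0.10 and Dcn 0.31 in the acute vehicle contrast. The smallest adjusted p of these was 0.868 (Dcn).

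**Figure D5:**
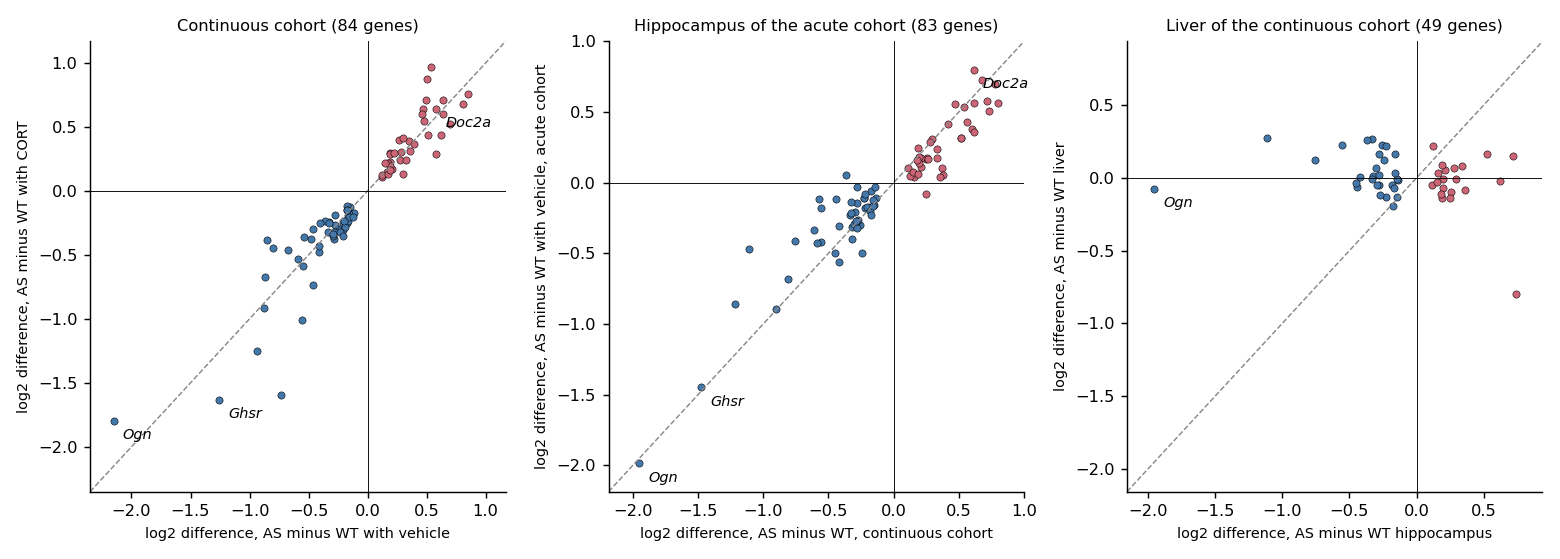
Log2 differences between AS and WT mice for the 84 genes past the threshold (red, higher in AS; blue, lower), with CORT against vehicle in the continuous cohort, in acute vehicle mice against the continuous cohort (83 genes), and in liver against hippocampus (49 genes); dashed lines mark equal values. In the acute cohort 81 of 83 genes have the same sign, and in liver 22 of 49 do.

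Libraries H17 to H24 of the acute cohort, which hold 2 of its 6 AS vehicle mice and all of its AS CORT mice, had more reads of low alignment quality than the rest. Without them 3 genes (0.0205%) passed the threshold in the acute vehicle contrast, all 3 among the 84 (Ogn, Doc2a and Lamp5). Ghsr (log2 difference of -1.4, adjusted p = 0.118) and Hrk (0.415, adjusted p = 0.116) kept their differences but no longer passed. The sign of the continuous cohort was kept by 78 of 83 genes, as by 60.4% of all genes. Of these 78, 54 had an unadjusted p under 0.05, against 9.08% of all genes with both.

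In liver of the continuous cohort, the genes shared the hippocampal sign about as often as other genes. Of the 84, 49 were measured in liver and 22 (44.9%) had the same sign, beside 53.1% of all genes. An unadjusted p under 0.05 was reached by 7 of them, against 8.96% of all genes, and 0 were among the 31 genes (0.253%) that passed the edgeR threshold there, beside 987 genes at an unadjusted p under 0.05 among those tested in both tissues. Ogn was 0.241 to 2.77 CPM in WT and 0.374 to 2.39 CPM in AS livers (log2 difference of -0.08, adjusted p = 0.973). Doc2a and Ghsr had 0 counts in all 20 livers, and Lamp5 at most 0.0535 CPM, under the floor of 3 counts.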

How the data were processed

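RNA of the left hippocampus and of liver was sequenced by the authors as stranded 100 bp paired-end libraries, aligned with STAR to mm10 and counted with HTSeq. The deposited values are raw counts per gene. The annotation release and strand setting are not given in the sources used here. Symbols came from GENCODE M21. Genes were kept with over 20 median-of-ratios normalized counts in at least 3 libraries of 1 group. Counts were TMM-normalized and tested with edgeR 4.0.16 (R 4.3.3) by quasi-likelihood with treatment as a covariate, and the adjusted p (Benjamini-Hochberg, all genes tested) had a threshold of 0.05. Differences are log2 of AS over WT, with standard errors from the F statistic. Vehicle, CORT and interaction contrasts used 4 group coefficients. The acute cohort and liver were fitted separately. The scripts were tested on simulated data. DESeq2 1.42.0, limma 3.58.1 and sva 3.50.0 gave alternatives.

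Named genes were Ube3a, the 12 higher and the 12 lower genes with the smallest p, list members past the threshold or nearest to it (at most 4 a list, 1 of which is not reported here), and genes past it in the acute vehicle contrast as well. Further members of the lists, such as Prox1, Col1a1, Dcn, Bgn, Fos, Fkbp5 and Nr3c1, were named after their values were seen. The comparison and all lists were chosen with earlier results of these data known. No pair of the 18 libraries agreed within counting noise (4.64 to 31.7 times that noise over 153 pairs).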

Additional observations from a re-analysis of the deposited data

Results flagged for a closer look

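For the genes named, 100 of the groups of 4 or 5 mice, and not all of them, were tested for a mouse far from the others of its group. In these 7 were found, where chance alone gives about 1 in 20. Slc5a5 accounted for 3 of these. It was 18.5 CPM in H5 (WT, CORT) against 11.8 to 13.4 CPM in the other mice of that group, 24.7 CPM in H2 (AS, vehicle) against 16.4 to 17.2 CPM, and 17.8 CPM in H16 (AS, CORT) against 22.6 to 24 CPM. Cbarp was 403 CPM in H2 against 337 to 345 CPM in the other AS vehicle mice. Npy1r was 26.9 CPM in H16 against 22.2 to 23.6 CPM in the other AS CORT mice. Jade1 was 29.8 CPM in H12 (WT, CORT) against 32.2 to 33.1 CPM, and Stc2 was 5.71 CPM in H4 (WT, vehicle) against 3.85 to 4 CPM.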

How the results depend on the processing

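No paired analysis was possible because the labels give the mice of the groups no shared replicate numbers. All 84 genes of the pooled comparison kept their sign in every setting run, but their number moved. The pooled count was 335 with DESeq2, 394 with limma-voom and quality weights, 130 with 1 surrogate variable, 52 as the mean of the vehicle and CORT contrasts, 41 without the treatment covariate, 18 at an adjusted p of 0.01, 11 with the dentate granule marker covariate and 2 with all 20 libraries. It stayed within 1.5 times of 84 with median-of-ratios factors (84), upper-quartile scaling (94), no filter (70) and offsets for GC content and length (126). Without 1 mouse it ranged from 27 (H11) to 342 (H14), and was 250 without H5, 49 without H3, 48 without H2 or H4, 47 without H8, 45 without H20, 42 without H7 or H12, 36 without H18 and 33 without H19. The vehicle count was 18 with DESeq2, 9 with 1 surrogate variable, 7 with limma-voom, 5 with no filter, 1 at 0.01 and 0 with all 20 libraries, and 1 to 6 without 1 mouse. The CORT count was 47 with DESeq2, 26 with limma-voom, 1 at 0.01 and 0 with all 20 libraries, and 1 to 16 without 1 mouse. The interaction gave 0 in each. The acute vehicle count was 99 with DESeq2, 6 at 0.01 and 3 without H17 to H24, and the liver count was 83 with DESeq2 and 13 at 0.01. Vamp1 (0.169) and Aqp4 (0.0284) changed sign with all 20 libraries, and Hba-a2 (-0.0175) with the dentate covariate. The cause was not tested.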

Other observations

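Among genes with over a 2-fold difference that missed the threshold, 2 were set by single mice. Pomc, which encodes the precursor of ACTH and beta-endorphin, was 328 CPM in H8 (AS) and 67.6 CPM in H15 (WT), with medians of 1 CPM in WT and 1.25 CPM in AS mice (log2 difference of 2.76, edgeR adjusted p = 0.289). The mitochondrial gene mt-Co3 was 162 CPM in H17 (WT), with medians of 1.90 CPM in WT and 2.46 CPM in AS mice (log2 difference of -2.19, adjusted p = 0.324). Ntn5, for a netrin, was 4.65 to 21.9 CPM in WT mice and 2.64 to 8.02 CPM in AS mice, with H14 the highest AS mouse (log2 difference of -1.17, adjusted p = 0.0545). Glp2r, for the receptor of glucagon-like peptide 2, was 1.04 to 8.71 CPM in WT mice and 0.409 to 4.56 CPM in AS mice (log2 difference of -1.07, adjusted p = 0.118).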
